A study of Homo sapiens with 13 samples.

Results

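The clustered protocadherin genes of human chromosome 5 were examined as a stretch of 735 kb, chr5:140160000-140895000 in the hg19 build, which holds the PCDHA (alpha), PCDHB (beta) and PCDHG (gamma) subclusters. Members were all ChIP-seq peaks of the 7 deposited lists that overlapped this window by at least 1 bp, 126 of 136141 peaks. The window is that of 53 protocadherin genes, 15 alpha, 16 beta and 22 gamma, and all 53 symbols were placed on chromosome 5 by RefSeq. The approximate limits of the subclusters were 140165000-140392000, 140430000-140628000 and 140710000-140893000, and 3 H3K4me3 peaks per genotype lay between them. Members were chosen by the positions of peaks in these lists, with results of the lists known, so their numbers are a description and carry no test.

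The cells were H1 (WA01), a human embryonic stem cell line in long use. WT cells were compared with the H1 line labelled 1-10, a homozygous ZNF263 knockout (KO) made with Cas9. ZNF263 is a C2H2 zinc finger transcription factor. H3K4me3, which is typical of promoters, H3K27ac, found at active promoters and enhancers, and H3K27me3, the mark of Polycomb repression, were mapped in WT and in KO with 1 library each. The FLAG antibody mapped tagged ZNF263 in KO cells that carried an ectopic FLAG-tagged copy, again with 1 library, and its peaks are called FLAG peaks. A single KO line was analysed, so differences between the genotypes cannot be told apart from differences between cell lines or between libraries. The lists give a score and no read counts for each peak, so the depth of the libraries is unknown. The lowest score was 50 for H3K4me3 and FLAG and 40 for the other marks, and many strong peaks stop near 3100, so scores are compared only within a list. Wilson 95% intervals are given, which cover counting error alone, and neighbouring peaks are not independent.

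Clustered protocadherins are cadherin-like adhesion proteins of neurons. In the alpha and gamma subclusters each variable exon has its own promoter and is spliced to constant exons shared by the whole subcluster, whereas the beta genes have no shared constant exons. A neuron uses a small, largely random choice of these promoters, and the resulting combination marks the cell and its branches, which avoid each other. Promoter choice depends on CTCF and cohesin, which loop promoters to enhancers, and on DNA methylation. The C-type members, PCDHAC1, PCDHAC2, PCDHGC3, PCDHGC4 and PCDHGC5, are used more uniformly across neurons. Most promoters of the family share a short conserved element with a CGCT core.

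The sequences around CGCT show how alike the promoters of these genes are. RefSeq promoters of the GRCh38.p14 build, 250 bases before to 50 after each gene's start, were found for 47 of the 53 members, all on the plus strand. PCDHA3, PCDHA13, PCDHB6, PCDHB11, PCDHGA12 and PCDHGC5 are named only. Of the 47 members, 46 held CGCT on the plus strand, against 54.3% of the 35116 promoters of the table, and the exception was PCDHA9. On either strand the numbers were 46 and 70.0%. Between 120 bases before and 10 bases after the gene start, CGCT was found on the plus strand in 45 members, against 34.7% of all promoters. The 5 members with 2 entries counted when either entry held the letters. The copy whose flanks were most like those of other members lay at a median of 58 bases before the start. No lower limit was set on this likeness, so a copy need not be the conserved element. Below, the 4 lowest-numbered members of each subfamily with such a copy are given (3 for gamma B), with the CGCT core in capitals and 14 bases on each side. Coordinates of these sequences are GRCh38.p14, plus strand, and cannot be set beside the hg19 coordinates of the peaks.

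Alpha members shared a run of letters just before the core.
PCDHA1, chr5:140786088-140786119: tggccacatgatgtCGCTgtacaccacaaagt
PCDHA2, chr5:140794783-140794814: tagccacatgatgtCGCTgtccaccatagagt
PCDHA4, chr5:140806981-140807012: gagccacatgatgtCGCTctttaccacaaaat
PCDHA5, chr5:140821544-140821575: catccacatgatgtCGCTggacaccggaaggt
The word GATGTCGCT was held on the plus strand by 9 of 11 alpha members and by no other member, against 0.074% of all promoters. These longer words were chosen after the sequences had been seen.

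Beta members shared other letters before the core, and PCDHB1, the first of them, differed from the rest.
PCDHB1, chr5:141051276-141051307: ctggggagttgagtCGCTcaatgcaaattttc
PCDHB2, chr5:141094546-141094577: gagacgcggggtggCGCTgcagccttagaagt
PCDHB3, chr5:141100395-141100426: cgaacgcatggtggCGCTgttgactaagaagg
PCDHB4, chr5:141121725-141121756: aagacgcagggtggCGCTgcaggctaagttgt
GGTGGCGCT was present on the plus strand in 13 of 14 beta members, all but PCDHB1, and in none of the alpha or gamma members. Of all promoters 0.302% held it.

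Gamma A and gamma B members shared letters on both sides of the core.
PCDHGA1, chr5:141330405-141330436: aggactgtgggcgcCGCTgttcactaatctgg
PCDHGA2, chr5:141338705-141338736: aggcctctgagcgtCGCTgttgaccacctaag
PCDHGA3, chr5:141343769-141343800: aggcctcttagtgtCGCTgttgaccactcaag
PCDHGA4, chr5:141354962-141354993: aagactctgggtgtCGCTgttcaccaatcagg
PCDHGB1, chr5:141350027-141350058: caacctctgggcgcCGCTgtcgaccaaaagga
PCDHGB3, chr5:141370164-141370195: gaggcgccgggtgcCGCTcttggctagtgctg
PCDHGB4, chr5:141387619-141387650: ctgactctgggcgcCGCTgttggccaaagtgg
GCGCCGCTG was held on the plus strand by 6 of 11 gamma A and 4 of 7 gamma B members, against 0.598% of all promoters. CGCTGTT, which overlaps the core, was held by 10 of 11 gamma A, 3 of 7 gamma B and 1 of 14 beta members, against 1.2% of all promoters.

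The C-type members, used more uniformly across neurons, are shown for contrast.
PCDHAC1, chr5:140926222-140926253: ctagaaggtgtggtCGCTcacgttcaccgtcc
PCDHAC2, chr5:140966367-140966398: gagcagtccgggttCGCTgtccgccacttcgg
PCDHGC3, chr5:141475882-141475913: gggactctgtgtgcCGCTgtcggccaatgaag
PCDHGC4, chr5:141484954-141484985: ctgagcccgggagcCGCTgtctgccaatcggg
Each copy was set against the CGCT copy of each other member that matched it best. Outside the core, a copy was on average 61.3% identical to those of the other gamma members for PCDHGC3 and 51.8% for PCDHGC4. Against the other alpha members it was 29.5% for PCDHAC1 and 39.6% for PCDHAC2, below the 46.1% to 67.2% of the numbered alpha members. PCDHB1, at 32.4%, and PCDHGB7, at 25%, were the least alike among the beta and gamma members.

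The C-type promoters were among those with the most CpG pairs, together with several gamma B members. As examples, the complete upstream windows of the first alpha gene and the first alpha C-type gene follow, with the core shown above in capitals.
PCDHA1, chr5:140785890-140786139: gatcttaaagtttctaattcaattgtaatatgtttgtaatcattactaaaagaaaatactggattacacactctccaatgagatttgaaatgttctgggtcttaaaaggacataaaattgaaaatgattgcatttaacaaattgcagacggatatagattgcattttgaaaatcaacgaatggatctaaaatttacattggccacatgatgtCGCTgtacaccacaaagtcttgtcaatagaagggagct
PCDHAC1, chr5:140926049-140926298: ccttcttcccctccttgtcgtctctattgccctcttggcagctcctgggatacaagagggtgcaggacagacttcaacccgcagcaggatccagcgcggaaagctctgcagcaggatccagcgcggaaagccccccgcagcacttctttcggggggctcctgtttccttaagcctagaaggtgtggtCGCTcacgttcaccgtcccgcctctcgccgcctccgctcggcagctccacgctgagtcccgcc
In its 300-base entry PCDHA1 had 4 CpG pairs and PCDHAC1 27. For PCDHGB1, PCDHGB4, PCDHGB5, PCDHGB6 and PCDHGC4, which have 2 entries, the larger number was taken, and letters counted when in either entry. All promoters of the table were counted by entry. The alpha C-type members had 15 and 27, the gamma C-type 18 and 24, and gamma B members up to 25 (PCDHGB6, with 16 in its other entry). The median was 7 over the 11 alpha, 7.5 over the 14 beta, 5 over the 11 gamma A and 11 over the 7 gamma B members. It was 21 in the 2 alpha and in the 2 gamma C-type members, and 14 over all promoters of the table. GGAGGA, the repeated unit of the ZNF263 motif, was found on either strand in 16 of 47 members, against 36.6% of all promoters. CCCTC, the letters that CTCF is named for and not its full motif, was found on either strand in 14 members, against 71.2%. By subfamily it was found in 1 of 11 alpha, 0 of 14 beta, 4 of 11 gamma A and 6 of 7 gamma B members. Of the C-type members, 2 of 2 in alpha and 1 of 2 in gamma held it. A match is a description of letters and not a binding site, and lack of these letters is not lack of a CTCF site. The full CTCF motif was not searched, and CTCF binding was not tested.

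**Figure D1:**
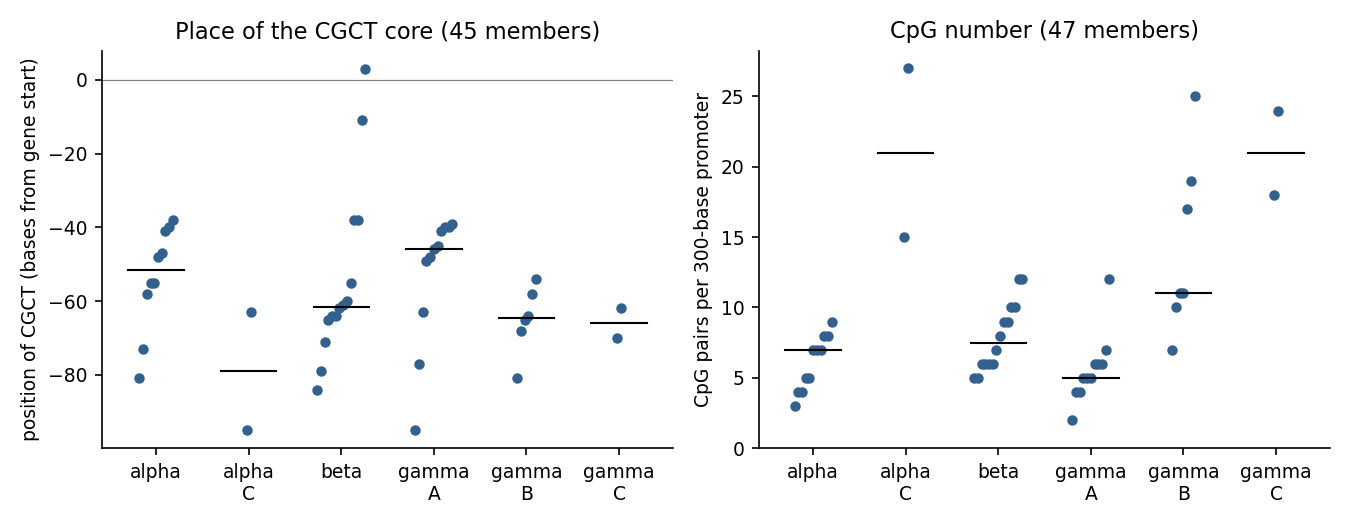
Left: position, relative to the gene start and in bases, of the CGCT copy most like those of other members, for 45 protocadherin members. Right: CpG pairs per 300-base RefSeq promoter for 47 members. Each point is a member (for members with 2 entries, the entry with more CpG pairs is plotted on the right) and the line is the median of the subfamily. This copy lies 38 to 95 bases before the start in all of these members except PCDHB5 and PCDHB8. It need not be the conserved element. Outside CGCT, the copies of PCDHGB7 (25%), PCDHAC1 (29.5%), PCDHB1 (32.4%) and PCDHAC2 (39.6%) were the least like those of their subcluster. C-type and several gamma B members have the most CpG pairs.

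The chromatin of the window was described first for H3K4me3, the most frequent mark. WT cells had 42 H3K4me3 peaks over 97.3 kb of the window and KO cells 33 peaks over 85.9 kb. In the alpha subcluster the numbers were 17 in WT and 10 in KO, in beta 11 and 10, and in gamma 11 and 10. The alpha numbers depended on the processing, with 11 in WT and 9 in KO when peaks up to 3 kb apart were merged, and 6 in WT and 8 in KO among peaks in the top 50% of scores. No KO peak lacked a WT partner, whereas 8 of the 42 WT peaks (19.0%, interval 9.98 to 33.3) had no KO partner. Over the complete lists 12.3% of WT peaks were WT-only and 7.30% of KO peaks were KO-only. On the rest of chromosome 5, 12.2% of 1384 WT peaks were WT-only.

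**Figure D2:**
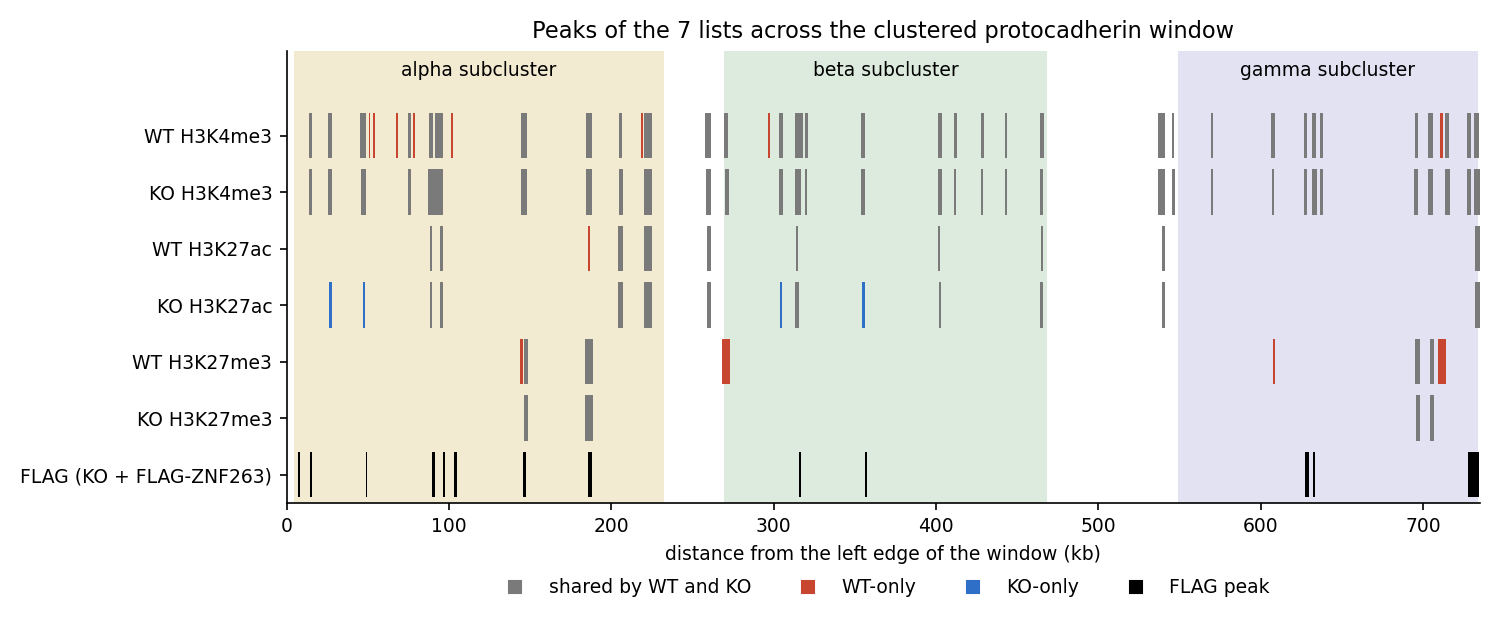
Peaks of the 7 lists by distance from the left edge of the protocadherin window, in kb, drawn to scale, with the alpha, beta and gamma subclusters shaded. Each bar is a peak, grey when shared by WT and KO, red when WT-only, blue when KO-only and black for FLAG. Of the 8 WT-only H3K4me3 peaks 6 lie in the alpha subcluster, and the 4 KO-only H3K27ac peaks lie in alpha and beta.

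Of the 8 WT-only H3K4me3 peaks, 6 lay in the alpha subcluster. The alpha peak with the largest score was chr5:140212885-140214466, 1582 bp wide with a score of 457, and the nearest KO peak was 4.13 kb away. The others in alpha were weak, at chr5:140210455-140211385 (score 53.1), chr5:140227456-140228433 (101), chr5:140237577-140238862 (77.6), chr5:140261299-140262630 (83.6) and chr5:140377969-140379642 (63.5). The beta subcluster had a WT-only peak at chr5:140456441-140457732 (score 155.8). The gamma subcluster had the strongest, at chr5:140870398-140872617, 2220 bp wide with a score of 1683 and 0.983 kb from the nearest KO peak. Thus 6 of the 8 had scores below 160, and all 8 lay below the median score of the WT list, 1925. The number depended on how close a KO peak may lie, since 3 of the 8 were within 1 kb of one. It was 5 when a gap of up to 1 kb counted as shared and 3 when peaks up to 3 kb apart were merged.

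The H3K4me3 regions present in both genotypes differed little in width. WT and KO peaks formed 33 shared regions with median widths of 2243 bp in WT and 2222 bp in KO, and the KO to WT ratio had a median of 1.001. The ratio lay within 0.8 to 1.25 for 28 of the 33, against 91.3% of the 24874 shared regions of the complete lists. At the upper end, 1.60, the KO peak chr5:140247080-140252847 of the alpha subcluster spanned both WT peaks chr5:140247667-140249756 and chr5:140251461-140252973. The lowest ratio, 0.642, belonged to the beta region chr5:140479440-140481357, which was 1918 bp wide in WT and 1231 bp in KO. KO peaks were narrower in 8 of 10 beta regions and wider in 7 of 10 alpha and 8 of 10 gamma regions, with 2 differences per subcluster of 20 bp or less. Over the complete lists, 54.8% of shared regions were narrower and 45.0% wider in KO. Peak width moves with depth, and with 1 library per genotype these counts have no replicate check.

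**Figure D3:**
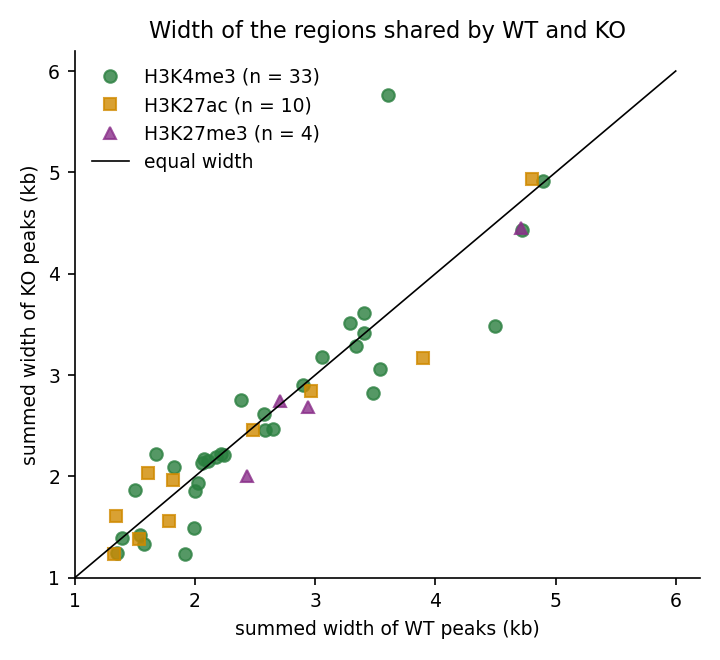
Summed width of KO peaks against summed width of WT peaks, in kb, for each region of the window shared by both genotypes (33 for H3K4me3, 10 for H3K27ac and 4 for H3K27me3). The line marks equal width. Most points lie close to the line, and the point farthest above it is the alpha region in which 1 KO peak spans 2 WT peaks.

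The widest H3K4me3 peak of the alpha subcluster in WT was chr5:140380100-140384996, with 4897 bp in WT and 4915 bp in KO. In beta it was chr5:140473280-140477778, with 4499 bp in WT and 3487 bp in KO. In gamma it was chr5:140891436-140894839, with 3404 bp in WT and 3610 bp in KO, and it reached the score of 3100 in both lists, the highest of gamma in WT together with chr5:140791751-140794137, which was 2387 bp wide in WT and 2754 bp in KO. In alpha 5 WT peaks tied at 3100, starting at 140185505, 140205378, 140252998, 140304486 and 140344402, and their KO partners were 2620, 3065, 3291, 3519 and 3411 bp wide. The highest-scoring WT peak of the window, chr5:140429443-140432096 (score 3118), straddled the left limit of the beta subcluster and was 2654 bp wide in WT and 2469 bp in KO. Long stretches had no H3K4me3 peak in either genotype. The longest in WT ran for 70.4 kb from the end of the beta subcluster to a pair of peaks between beta and gamma, followed by 56.2 kb inside gamma and 44.9 kb inside beta. In KO these measured 70.7, 56.1 and 45 kb, and loss of the WT-only peak at 140261299 made a stretch of 48.1 kb in alpha, against 41.9 kb in WT.

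H3K27ac went the other way in number. WT had 12 H3K27ac peaks over 23.9 kb and KO 14 over 29.1 kb. In alpha each genotype had 6, in beta WT had 3 and KO 5, and in gamma and between the subclusters the numbers were equal, 1 and 2. Of the 14 KO peaks 4 (28.6%, interval 11.7 to 54.6) were KO-only, against 24.8% of the complete KO list. Of the 12 WT peaks 1 (8.33%, 1.49 to 35.4) was WT-only, against 24.6% of the complete WT list. Both shares have intervals that include the share of the complete list.

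The KO-only H3K27ac peaks all lay on H3K4me3 regions that both genotypes had. In alpha they were chr5:140185761-140187551, 1791 bp wide with a score of 87.8, and chr5:140207114-140208172, 1059 bp wide with a score of 43.1. In beta they were chr5:140463653-140465193, 1541 bp wide with a score of 47.6, and chr5:140514252-140516219, 1968 bp wide with a score of 340.4. The last was the only one in the upper 50% of its list, at percentile 81.0, and no WT H3K27ac peak lay within 39.1 kb of it. The pair in alpha had no WT H3K27ac peak within 60.5 and 39.9 kb, and the weak beta peak none within 8.37 kb. The WT-only peak was chr5:140345589-140347066 in alpha, with a score of 42.4, near the lowest score of the list.

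The strongest H3K27ac of the window lay at the right end of the alpha subcluster in both genotypes. In WT the peaks chr5:140380124-140382907 (score 462.8) and chr5:140364256-140367220 (444.4) scored highest in the window, at percentiles 85.6 and 84.9 of the list, and chr5:140382941-140384963 (93.1) adjoined the first. In KO the peaks chr5:140380227-140385164 (589.4) and chr5:140418848-140421307 (487.6) scored highest, the latter between alpha and beta. That second position had a WT peak of similar width, 2485 bp against 2460 bp in KO. The WT peak stood at percentile 47.8 of its list and the KO peak at percentile 87.9. Within the gamma subcluster, H3K27ac was found only at its right end, with a WT peak of 3899 bp and a KO peak of 3165 bp that both crossed the window's edge. Of these peaks only 0.726 kb in WT and 0.712 kb in KO lay inside gamma. Counted by the middle of the peak, gamma had 0 H3K27ac peaks in WT and 0 in KO. The other shared H3K27ac regions lay at 140247994-140249602 and 140254218-140256005 in alpha, at 140473360-140475397, 140561368-140562811 and 140624349-140625899 in beta, and at 140699203-140701166 between beta and gamma. RefSeq lists the protein-coding genes SLC25A2 and TAF7, which are not protocadherins, between the outermost members, so a peak outside the subclusters need not belong to a protocadherin.

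**Figure D4:**
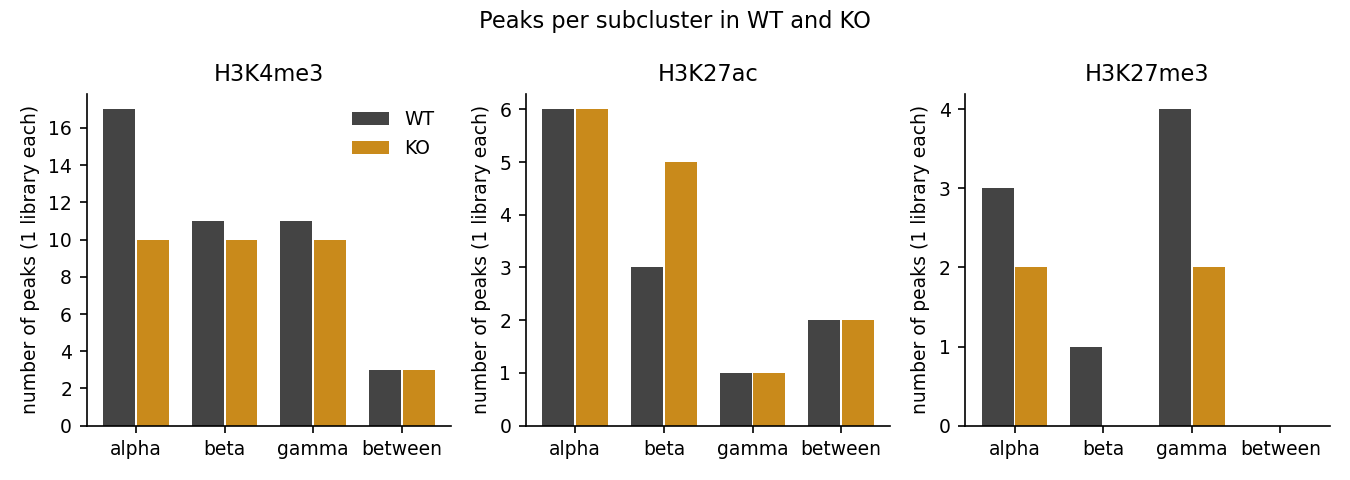
Number of peaks of each mark in the alpha, beta and gamma subclusters and between them, in WT and in KO, each from 1 library, so there are no error bars. In the lists as deposited, alpha has 17 H3K4me3 peaks in WT and 10 in KO (11 and 9 when peaks up to 3 kb apart are merged, 6 and 8 in the upper 50% by score), and beta 3 and 5 H3K27ac peaks (1 and 2 in the upper 50%).

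H3K27me3 had the fewest peaks of the 3 marks in the window, and fewer in KO than in WT. WT had 8 H3K27me3 peaks over 25.7 kb and KO 4 over 11.9 kb. No KO peak was KO-only, against 11.0% of the complete KO list. Of the WT peaks 4 of 8 (50%, interval 21.5 to 78.5) were WT-only, against 21.6% of the complete WT list and 16.6% of 567 WT peaks on the rest of chromosome 5. The interval includes the share of the complete list, and with so few neighbouring peaks it is no test against either share. When peaks up to 3 kb apart were merged, 2 of 6 WT peaks were WT-only, and with lists of equal length 3 of 7. Score limits, which also drop KO peaks, raised the share. It was 4 of 5 in the upper 50% by score and 5 of 7 with a score of 100 or more.

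The WT-only H3K27me3 peaks were spread over the 3 subclusters. In gamma, chr5:140869066-140874080, 5015 bp wide with a score of 2738, was the widest and highest of the window, at percentile 81.9 of its list. The nearest KO H3K27me3 peak was 2.56 kb away. Also in gamma, chr5:140767650-140768902 was weak, with a score of 43.5, and had no KO peak within 86.6 kb. The beta subcluster had a single H3K27me3 peak in WT, chr5:140428264-140433048, which straddled its left limit with 4785 bp and a score of 307.9, and none in KO. In alpha, chr5:140303932-140305760 (score 105) ended 0.334 kb before a KO peak that continued the same domain.

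The 4 shared H3K27me3 regions lay at the right of alpha and the right of gamma. In alpha, the WT peaks chr5:140306072-140308776 (2705 bp) and chr5:140343971-140348681 (4711 bp) had KO partners of 2740 and 4451 bp. In gamma, chr5:140855367-140858307 (2941 bp) and chr5:140864310-140866745 (2436 bp) had partners of 2681 and 2000 bp. Their scores in the KO list were 175.9 and 320.6 in alpha and 72.4 and 81.7 in gamma. These stood at percentiles 39.1 and 50.6 in alpha and 19.4 and 22.7 in gamma of the KO list. In the WT list the percentiles were higher, 50.7 and 66.6 in alpha and 53.6 and 47.0 in gamma.

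In this window the other marks were found only on H3K4me3. All 12 WT and all 14 KO H3K27ac peaks overlapped an H3K4me3 peak of the same genotype, against 71.0% and 65.0% in the complete lists. All 8 WT and all 4 KO H3K27me3 peaks did, against 74.4% and 73.3%. Seen from H3K4me3, 24 of 42 WT peaks (57.1%, interval 42.2 to 70.9) carried neither other mark, against 28.7% of all WT H3K4me3 peaks and 27% on the rest of chromosome 5. In KO it was 15 of 33 (45.5%, 29.8 to 62.0), against 30.7%. Bivalent peaks, which carry H3K4me3 with H3K27me3, numbered 8 of 42 in WT (19.0%), against 33.4%, and 4 of 33 in KO (12.1%), against 30.7%. H3K4me3 peaks with H3K27ac numbered 11 in WT (26.2%), against 42.6%, and 14 in KO (42.4%), against 41.4%. All 3 marks met at 1 WT peak and at no KO peak, against 4.69% and 2.84% of the complete lists.

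Joined over the genotypes, the H3K4me3 peaks formed 41 regions, of which 25 carried the same marks in WT and KO and 16 did not, against 32.1% of 30389 regions over the complete lists that did not. The 25 comprised 12 regions with H3K4me3 alone, 10 with H3K27ac and 3 with H3K27me3. Of the 16, 7 regions with H3K4me3 alone in WT had no mark in KO, a difference found in 6.38% of all regions. In 4 more with H3K4me3 alone, H3K27ac was added in KO, as in 3.03% of all regions. A further 3 bivalent regions had H3K4me3 alone in KO, at 140429443-140432216, 140766634-140768624 and 140873356-140876502. The gamma region 140870398-140872617 was bivalent in WT and carried no peak in KO. It and the region 140873356-140876502 were bivalent through the same WT-only H3K27me3 peak, chr5:140869066-140874080, so these differences are not separate for H3K27me3. The alpha region 140344402-140347828 had all 3 marks in WT and lacked H3K27ac in KO. By subcluster, marks differed in 9 of 16 alpha, 4 of 11 beta and 3 of 11 gamma regions, and in none of the 3 between them. In alpha 6 of the 9 were the WT-only H3K4me3 peaks, whose scores all lay below the median of the WT list.

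FLAG peaks showed where tagged ZNF263 was found in the window. There were 13, with 8 in alpha, 2 in beta, 3 in gamma and none between. Their median score was 78.2, against 86.7 in the complete list and 84.4 on the rest of chromosome 5. The strongest, chr5:140888001-140894417 at the right end of gamma, was 6417 bp wide with a score of 267 and ranked 2417 of 22966. It reached over both H3K4me3 regions there and the H3K27ac peak of both genotypes. The second, chr5:140787104-140789982 in gamma, had a score of 199.7, and the third, chr5:140305574-140307645 in alpha, 127.9. The other 10 scored from 53.4 to 96.8.

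Most FLAG peaks of the window lay on H3K4me3. Of the 13, 10 (76.9%, interval 49.7 to 91.8) lay on H3K4me3 of WT and 10 on that of KO, against 50% and 48.9% of all FLAG peaks. H3K27me3 of WT and of KO was overlapped by 2 each, against 28.1% and 25.2%, and H3K27ac by 2 in WT and 3 in KO, against 20.7% and 17.8%. Counted from the histone marks, 11 of 42 WT and 11 of 33 KO H3K4me3 peaks held a FLAG peak, against 39.3% and 40.5% of the complete lists. For H3K27ac it was 2 of 12 WT and 3 of 14 KO peaks, against 27.1% and 23.0%, and for H3K27me3 3 of 8 and 2 of 4, against 48.7% and 48.6%.

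The FLAG peaks met different marks along the window. In beta, chr5:140475663-140476989 lay on H3K4me3 alone, although H3K27ac was found elsewhere in that region, and chr5:140515962-140517702 overlapped the KO-only H3K27ac peak. In alpha, chr5:140174170-140175285 and chr5:140208614-140209438 lay on H3K4me3 alone. The peak chr5:140249534-140251456 overlapped H3K4me3 of both genotypes and H3K27ac in KO, and chr5:140345430-140347940 lay at the region with all 3 marks in WT. The gamma peak chr5:140792281-140793667 lay on H3K4me3 alone, as did the second strongest.

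The 3 FLAG peaks off all marks in both genotypes were in alpha. They were chr5:140167001-140168346, 5563 bp from the nearest WT H3K4me3 peak, chr5:140256399-140257751, only 61 bp from one, and chr5:140263238-140264547, 607 bp from the WT-only peak at 140261299. In all, 23.1% of the FLAG peaks here touched none of the 3 marks (interval 8.18 to 50.3), in WT and likewise in KO. Of all FLAG peaks 47.2% touched none in WT and 48.2% none in KO. Among the 10 on WT H3K4me3, 6 had their centre inside the H3K4me3 peak and 4 beyond its edge. Over all 11484 FLAG peaks on WT H3K4me3, 94.5% had the centre inside. Of the 4, chr5:140249534-140251456 lay wholly inside the KO H3K4me3 peak. The peak chr5:140888001-140894417, 6417 bp wide, reached over neighbouring H3K4me3 regions. The centres of those starting at 140208614 and 140515962 lay outside the KO peak as well. The FLAG centre lay to the right of the H3K4me3 centre, towards higher coordinates, in 8 of the 10, against 58.7%.

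**Figure D5:**
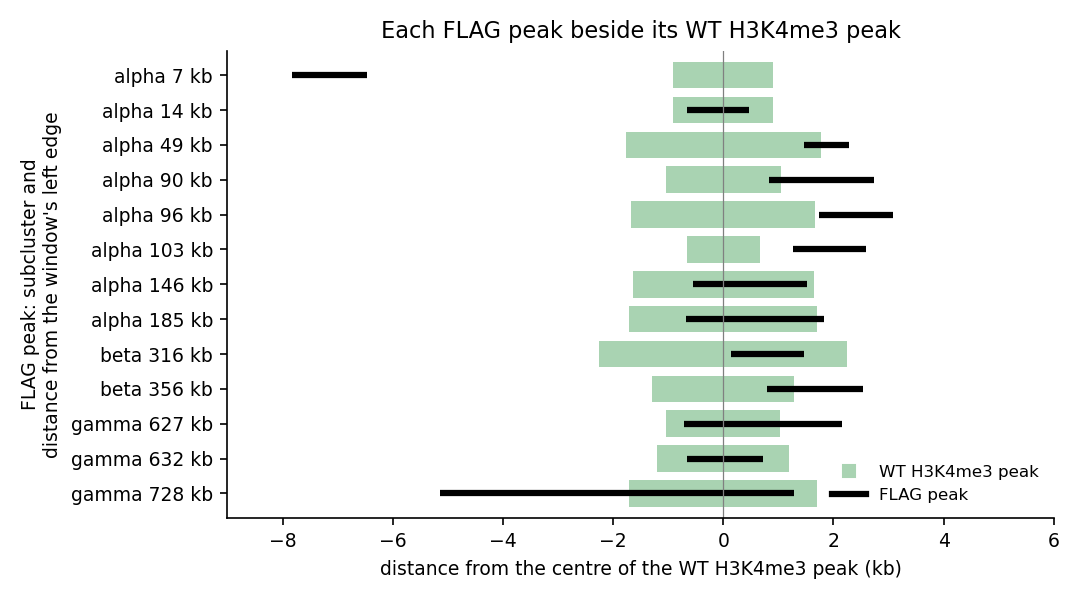
The 13 FLAG peaks of the window (black) by distance, in kb, from the centre of the WT H3K4me3 peak (green) that they overlap most, or the nearest where there is none. Rows run from left to right along the chromosome and are named by subcluster and distance of the FLAG peak from the window's left edge. In 3 alpha rows the FLAG peak misses the H3K4me3 peak.

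FLAG peaks lay at 11 of the 41 H3K4me3 regions. They were at 3 of the 16 whose marks differed, against 23.1% of all such regions, and at 8 of the 25 whose marks did not, against 43.8%. None of the 8 WT-only H3K4me3 peaks overlapped a FLAG peak, against 10.4% of all WT-only H3K4me3 peaks (4.19% of KO-only ones, of which the window had none). None of the 11 regions with H3K4me3 or H3K27me3 in WT but not in KO did, against 22.2%. These 11 include the regions of the 8 WT-only H3K4me3 peaks, so the counts are not separate. Of the 4 WT-only H3K27me3 peaks 1 overlapped a FLAG peak, against 35.4%, and it was the alpha peak at 140303932, whose region kept H3K27me3 through the neighbouring peak. Of the 4 KO-only H3K27ac peaks 1 overlapped a FLAG peak, against 7.10%, and the single WT-only H3K27ac peak did, against 23.2%. By region, FLAG peaks were at 2 of the 4 regions with H3K27ac added in KO, against 18.5%. With so few peaks these shares have wide intervals, and a FLAG peak in KO cells with an ectopic copy need not be a site of the endogenous protein.

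The edges of the window fell in stretches with few peaks on the left and at a dense end on the right. On the left the last WT H3K4me3 peak outside ended 53.7 kb before the edge, with a score of 655.7, and the first inside began 13.9 kb after it, with a score of 1519. On the right the last WT H3K4me3 peak ended 0.2 kb inside, and the next, with a score of 58.4, began 41.5 kb outside. A FLAG peak with a score of 67.8, chr5:140904074-140905268, lay 9.1 kb outside. H3K27me3 was absent for 415.7 kb to the left of the window and 184.7 kb to the right in WT, and for 433.7 and 184.5 kb in KO.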

How the data were processed

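Processed peak lists of 7 ChIP-seq libraries were used, 1 library per group, with groups taken from the sample titles. Bowtie2, Picard and hg19 are named in the submitters' processing notes without versions, and peak names begin with MACS. The sources used here do not name the input behind each list. The samples of endogenous ZNF263 cite the FLAG list in their labels, but their part in it is unclear. The deposited lists give position, name and the authors' score, whose scale is not given. Depth is unknown, which limits precision, and no floor was computed.

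A peak was in the window, or shared with another list, on an overlap of at least 1 bp, with exclusive peaks defined over the complete lists. Overlaps were computed with pandas 2.3.3 and numpy 2.4.6 under python 3.11.15, intervals with scipy 1.17.1, and figures with matplotlib 3.10.9. The overlap step was tested on simulated data of 500 peaks and differed from a direct count for 0. With 1 library per arm no test was made. Alternatives were other overlaps, window edges, score limits, lists of equal length and merged peaks. The rule for named peaks took all exclusive, H3K27ac and FLAG peaks, with shared H3K27ac peaks given as joint regions, and the widest and highest WT H3K4me3 and H3K27me3 peaks of each subcluster. Counts over all regions of the complete lists, set beside those of the window, were added after its values were seen. The members, lists and rules were chosen with earlier results of these data known. No hg19 annotation was used here, so no peak was assigned to a gene, and cell identity was not checked against marker genes. Sequences are RefSeq promoters of GRCh38.p14, matched by symbol. Protein sequences were not used here.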

Additional observations from a re-analysis of the deposited data

How the results depend on the processing

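No paired analysis was possible because each group compared held 1 library. For the window as a whole, 30 results had 220 alternatives, of which 171 gave a value within 1.5 times the reported one and 49 did not. By subcluster, 41 of 162 moved.

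When only the upper 50% of scores per list were kept, which shortens every list by construction, H3K4me3 had 18 WT peaks over 53.1 kb and 17 KO peaks over 53.1 kb, H3K27ac 6 WT peaks over 13.7 kb and 9 KO peaks, H3K27me3 5 WT peaks and 1 KO peak over 4.45 kb, and FLAG 6 peaks. WT-only and KO-only H3K4me3 peaks became 3 and 2, and WT-only H3K27ac peaks 0. FLAG peaks with WT and KO H3K4me3 became 5 and 6, with WT H3K27ac 1 and with KO H3K27me3 1. H3K4me3 peaks with H3K27me3 became 4 in WT and 1 in KO, and those with H3K27ac 4 and 7.

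With a score of 100 or more, H3K27ac had 7 WT and 9 KO peaks, KO H3K27me3 2 peaks over 7.19 kb and FLAG 3 peaks over 11.4 kb. WT-only and KO-only H3K4me3 peaks became 5 and 1, and WT-only and KO-only H3K27ac peaks 0 and 2. FLAG peaks with H3K4me3 became 3 in WT and 3 in KO, with H3K27ac 1 and 1, and with H3K27me3 1 and 1. H3K4me3 peaks with H3K27ac became 7 in WT and 8 in KO, and KO peaks with H3K27me3 2.

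Lists of equal length gave 1 KO-only H3K4me3 peak. Merging peaks up to 3 kb apart gave 3 WT-only H3K4me3 and 2 WT-only H3K27me3 peaks. Counting a gap of up to 1 kb as shared gave 5 WT-only H3K4me3 peaks, and 5 and 6 FLAG peaks with WT and KO H3K27ac. An overlap of 50% gave 1 FLAG peak with KO H3K27ac, and a window narrowed by 10 kb 1 with WT H3K27ac. Apart from what the construction of each alternative shows, the cause was not tested.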
